A study of Mus musculus with 16 samples.

Results

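Gastrocnemius muscle of N17182Q transgenic mice given the histone deacetylase inhibitor 4b was set against the same muscle of wild-type mice given 4b. The 8 arrays, 3 from transgenic (Tg/+) and 5 from wild-type mice, were those of the 16 in the series whose titles name 4B as the treatment, with 1 array per animal, and no measured value entered their choice. The other 8 arrays came from mice given vehicle, 4 of each genotype. All animals were of the strain B6C3F1/J. By general knowledge of this line, the transgene drives an N-terminal fragment of mutant human huntingtin with a lengthened polyglutamine stretch from the mouse prion promoter, beside the animal's own huntingtin gene. All 8 mice had received the compound, so the comparison gives the genotype difference under 4b and not the effect of 4b. The sources used here do not give dose, schedule, age or litter, and each transgenic mean rests on 3 animals of a single line.

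Of 25697 probes, 13706 had a detection p under 0.05 on at least 3 of the 16 arrays, and 1 probe for each gene left 10295 rows, 9521 of them with a gene symbol. Levels below are log2 of the normalised probe intensity, so a difference of 1 is a 2-fold difference. A gene is described as called, or as having risen or fallen, where limma's adjusted p for transgenic against wild type was under 0.05. In whole muscle, fewer cells of a type and less RNA per cell cannot be told apart.

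Huntington's disease is best known for the loss of striatal neurons, but skeletal muscle also wastes in patients and in mouse models. Muscle mass follows the balance between protein synthesis, driven by IGF-1, Akt and mTOR, and protein breakdown by the proteasome and by autophagy, which FOXO transcription factors and glucocorticoids turn on. Histone deacetylases remove acetyl groups from histones and other proteins, and 4b is known for its action on HDAC1 and HDAC3.

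Before the results, several arrays stood apart. Transgenic replicate 3 lay nearest to the wild-type mean in 2104 of the 2911 called genes (72.3%), against 464 for replicate 1 and 343 for replicate 2. Wild-type replicates 1 and 3 carried more adipocyte and lymphocyte signal than the other wild-type arrays, with a summed adipocyte level (mean over 14 markers, relative to the wild-type mean) of 1.43 and 0.80 against -0.94 to -0.57. Their lymphocyte level over 15 markers was 1.62 and 0.45 against -0.85 to -0.49. Transgenic replicate 3 had the highest erythroid level, 2.86, and the lowest lymphocyte level, -1.22. Both groups held both sexes by the Y-linked Eif2s3y, which was high on 1 of 3 transgenic arrays (replicate 2) and 2 of 5 wild-type arrays (replicates 4 and 5). The share of detected probes was 46.4% ± 0.668 (SD, n = 3) and 46.2% ± 1.94 (SD, n = 5), a difference of 0.170 percentage points (two-sided exact permutation p = 0.893 from 56 divisions, smallest possible 0.0357).

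The tissue's own markers were at the top of the scale in both groups. Acta1, skeletal muscle alpha-actin, averaged 15.06 in transgenic and 15.17 in wild-type muscle, and Ckm, muscle creatine kinase, 14.97 and 15.14. Of 11 muscle identity genes, Actn2 and Des, of the Z-disc and the intermediate filaments, rose by 0.85 and 0.48 and 0 fell. That is 18.2% called, under the 28.3% of all rows, with a list median of -0.12. The call of Des was lost under 8 of 26 alternatives. Prnp, whose promoter the transgene borrows, was at 13.99, 13.99 and 14.11 on the transgenic arrays and at 13.72, 13.45, 13.57, 13.60 and 13.32 on the wild-type arrays. The groups did not overlap, and Prnp rose by 0.50 ± 0.17 (SE; adjusted p = 0.0407; exact permutation p = 0.0357, the smallest possible). The call of Prnp was lost under 9 of 26 alternatives, and whether the probe reads the transgene was not tested. Htt, the mouse huntingtin gene, was dim, above background on 1 of 3 and 2 of 5 arrays, and its difference of -0.17 ± 0.17 (SE) did not pass (adjusted p = 0.511).

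Genotype was accompanied by differences in a large part of the muscle transcriptome in mice given 4b. Of 10295 rows, 2911 (28.3%) were called, 1597 higher (15.5%) and 1314 lower (12.8%) in transgenic muscle. The counts of called list members in this report are to be read beside these shares. A difference over 2-fold was measured for 582 genes that rose and 639 that fell, and one over 4-fold for 71 and 117. The 3 transgenic and the 5 wild-type arrays did not overlap in 3198 rows (31.1%), and 2500 rows (24.3%) were both called and non-overlapping. The number called depended on the transgenic arrays: it was 1618 without replicate 1, 1577 without replicate 2 and 3040 without replicate 3. The direction split depended on the scaling, since centring arrays on their median moved the median of all rows to 0.11, and of the rows called there 2372 were higher and 846 lower.

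Fold sizes are those of the background-corrected scale and of the brightest probe. For 41 of the 154 called genes that are named by rule the fold was over 1.5 times smaller without background correction, and the lower bounds given for genes below background hold for the corrected scale only: Doc2b was 3.52-fold, Col3a1 3.75-fold and Col6a2 3.41-fold without the correction. Of 57 called genes with another kept probe, 18 had one that was not called. These were Acot2, Mup2, Actc1, Myh8, Jph2, Asph, Clcn1, Musk, Tead4, Eya1, Rps9, Bbc3, Gstm1, Hdac6, Hr, Fmod, Usp18 and Pecam1, and their calls are those of the brightest probe. With the mean of a gene's probes, the calls of Myh8, Asph, Clcn1, Eya1, Rps9, Gstm1, Hdac6, Hr and Pecam1 were lost. Those of the others in this group were kept.

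The 15 largest rises among non-overlapping called genes included stress and growth-arrest genes, glucocorticoid targets, fatty acid thioesterases and a mitochondrial carrier. Cdkn1a, the cyclin-dependent kinase inhibitor p21, was at 13.71, 13.67 and 12.65 in transgenic muscle and at 8.47, 8.82, 8.35, 10.35 and 8.82 in wild-type muscle. The lowest transgenic array was above the highest wild-type array, wild-type replicate 4, and the difference of 4.38 ± 0.66 (SE; 20.9-fold, adjusted p = 0.000591) was the largest rise. Sln, which encodes sarcolipin, an inhibitor of the calcium pump SERCA, was at 13.06, 13.34 and 13.91 against 9.26, 9.41, 8.40, 10.22 and 8.48. Sln rose 19.4-fold (4.28 ± 0.45 SE, adjusted p = 0.000156), with transgenic replicate 3 the highest array here.

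Ddit4, which encodes the mTORC1 inhibitor REDD1, was at 12.30, 12.16 and 11.81 in transgenic and at 7.35 to 9.19 in wild-type muscle, a 14.3-fold rise (3.84 ± 0.70 SE, adjusted p = 0.00154). Fkbp5, a co-chaperone of the glucocorticoid receptor and one of its targets, was at 11.54, 11.74 and 11.31 against 6.98 to 9.31, a 12.9-fold rise (3.69 ± 0.72 SE, adjusted p = 0.00221). In both genes the 3 transgenic arrays lay closer together than the wild-type arrays. Acot1 and Acot2, thioesterases that release fatty acids from coenzyme A in the cytosol and in mitochondria, rose 12.3-fold and 9.25-fold by their brightest probes. A second Acot2 probe differed by 0.29 and was not called (adjusted p = 0.254), the mean of both probes giving 1.75, and since the sequences of the Acot family are closely related their probes may share signal. Slc25a34, a mitochondrial carrier, was at 11.35, 11.20 and 9.82 against 6.20 to 8.19 and rose 9.49-fold (adjusted p = 0.00113).

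The remaining large rises came from genes of varied function. Gnmt, a methyltransferase that uses S-adenosylmethionine, rose 14.3-fold, from 5.35 to 6.50 on the wild-type arrays to 9.88, 10.45 and 8.55. Tfdp2, a partner of E2F factors in the cell cycle, rose 9.60-fold with a small error (3.26 ± 0.41 SE, adjusted p = 0.000318). S100a8, a calcium-binding protein abundant in neutrophils, and Serpina3n, a secreted protease inhibitor, rose 11.4-fold and 9.13-fold, and for both transgenic replicate 3 was well below the others (9.74 against 11.87 and 12.33 for S100a8; 8.94 against 12.11 and 12.17 for Serpina3n). Doc2b, a calcium sensor of vesicle fusion, was below background on all 5 wild-type arrays and was at least 7.24-fold higher. Slc10a6, Tmem82 and Depp1, the last a FOXO target, completed the list with rises of 10.3-fold, 9.04-fold and 8.98-fold.

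**Figure D1:**
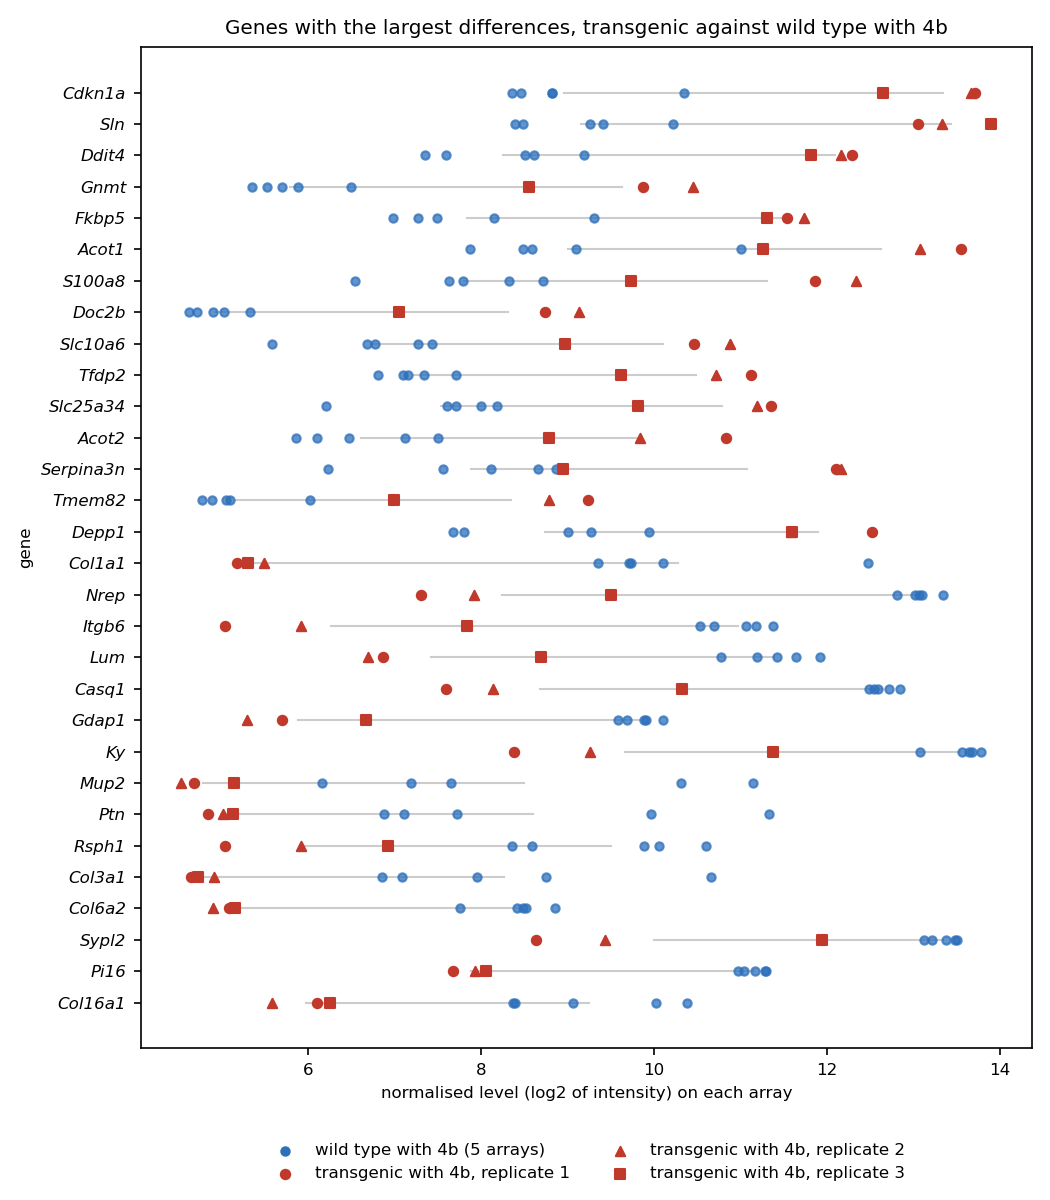
Normalised level (log2 of intensity, horizontal axis) on each of the 8 arrays of mice given 4b for the 15 genes with the largest rises (upper rows) and the 15 with the largest falls (lower rows); blue points are wild-type arrays, red symbols the 3 transgenic arrays, and grey lines join the group means. Transgenic replicate 3 (squares) lies nearest to the wild-type points in most rows, for example at 10.32 for Casq1 against 7.60 and 8.14, but not for Sln or Col1a1.

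The 15 largest falls were made up of extracellular matrix genes, muscle proteins and several secreted or neural growth genes. Col1a1, a chain of type I collagen, was at 5.18, 5.49 and 5.30 in transgenic and at 9.71, 9.74, 9.35, 12.48 and 10.10 in wild-type muscle. It fell by 4.95 ± 0.61 (SE; 31.0-fold, adjusted p = 0.000318) and was above background on 1 of the 3 transgenic arrays, so that the size of the fall depends on the background: without correction it was 9.74-fold (-3.28, adjusted p = 0.000558). Col3a1 and Col6a2, chains of type III and type VI collagen, were above background on none of the 3 and were at least 7.09-fold and 7.84-fold lower on the corrected scale, while a second Col3a1 probe differed by -1.02. Lum, a proteoglycan that organises collagen fibrils, fell 15.7-fold, Col16a1 9.64-fold and Pi16, a fibroblast protein, 9.64-fold.

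Among genes of the muscle fibre, Casq1, which encodes the calcium-storing protein of the sarcoplasmic reticulum in fast fibres, was at 7.60, 8.14 and 10.32 in transgenic and at 12.84, 12.59, 12.49, 12.72 and 12.55 in wild-type muscle. It fell by 3.95 ± 0.50 (SE; 15.5-fold, adjusted p = 0.000318). Ky, which encodes kyphoscoliosis peptidase, a muscle protein of the Z-disc, was at 8.38, 9.26 and 11.38 against 13.07 to 13.78 and fell 14.7-fold. Sypl2, which encodes mitsugumin 29 of the triad junction, was at 8.63, 9.44 and 11.94 against 13.12 to 13.51 and fell 10.1-fold. The 5 wild-type arrays agreed closely in these genes and the 3 transgenic arrays did not, replicate 3 being the highest in each.

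Nrep, which encodes a neuronal regeneration-related protein, was at 7.30, 7.92 and 9.50 against 12.81 to 13.35 and fell 28.4-fold (-4.83 ± 0.60 SE, adjusted p = 0.000318). Gdap1, a mitochondrial outer membrane protein whose mutation causes a hereditary neuropathy, was at 5.70, 5.29 and 6.67 against 9.59 to 10.10, and its difference of -3.95 ± 0.33 (SE; 15.4-fold lower, adjusted p = 3.49e-05) had a small error for its size. Itgb6, an integrin subunit known from epithelia, was at 5.04, 5.92 and 7.83 against 10.53 to 11.38, a 26.1-fold fall. Rsph1, a protein of the ciliary axoneme, fell 11.7-fold. Mup2, a major urinary protein from a family of near-identical genes (a second probe differed by -0.93 and was not called), and Ptn, a heparin-binding growth factor, were not above background on any transgenic array and were at least 8.33-fold and 8.97-fold lower, and both were highest on wild-type replicates 1 and 3 (10.31 and 11.15 for Mup2; 11.34 and 9.96 for Ptn), the arrays with more adipocyte signal. The part of that signal in these 2 falls was not tested.

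More genes of muscle wasting and protein breakdown rose than fell in transgenic muscle. Of 27 tested members of an atrophy list, 15 rose and 1, the ubiquitin-conjugating enzyme Ube2b, fell, against 15.5% and 12.8% of all rows, with a median difference of 0.88 beside -0.0045 over all rows. The summed level of the list was 1.01 to 1.36 on the transgenic arrays and -0.24 to 0.25 on the wild-type arrays, without overlap. Of this list, 12 members rose without transgenic replicate 1, 12 without replicate 2 and 15 without replicate 3.

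Ctsl, the lysosomal protease cathepsin L, was at 8.23, 8.71 and 8.25 against 5.66, 6.24, 5.28, 6.49 and 5.67, a 5.77-fold rise (2.53 ± 0.31 SE, adjusted p = 0.000318). Foxo1, the transcription factor that induces many atrophy genes, was at 10.76, 10.21 and 10.45 against 8.57, 8.41, 8.76, 7.92 and 7.89, a 4.47-fold rise (2.16 ± 0.32 SE, adjusted p = 0.000576). Eif4ebp1, the translation repressor 4E-BP1, lay between 13.45 and 13.49 on the transgenic arrays and between 11.30 and 12.32 on the wild-type arrays, a 3.37-fold rise. Ulk1, the kinase that starts autophagy, was at 11.09, 10.85 and 10.73 against 9.17 to 10.02, a 2.37-fold rise (1.25 ± 0.19 SE, adjusted p = 0.000578). All 4 genes were separated between the groups on every array.

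The muscle ubiquitin ligases Trim63 (MuRF1) and Fbxo32 (atrogin-1), taken up after their values were seen because they are the best known genes of this program, were more variable. Trim63 was at 13.28, 12.75 and 12.32 against 10.35, 10.91, 10.90, 12.10 and 11.40, and rose 3.14-fold (1.65 ± 0.42 SE, adjusted p = 0.0101). Fbxo32 was at 14.44, 13.84 and 13.06 against 11.54, 11.17, 11.12, 13.08 and 12.70, so the lowest transgenic array was just below the highest wild-type array, and it rose 3.63-fold (1.86 ± 0.64 SE, adjusted p = 0.0400). Wild-type replicate 4 was the highest of its group for both. With vehicle, the differences were 0.16 for Trim63 and -0.20 for Fbxo32, and neither was called.

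The promoters of Trim63 and Mt1 show the sequence elements named for this program. In mice and humans the Trim63 promoter is known for a glucocorticoid receptor site beside a FOXO site. The bases before each start site were searched on both strands for the glucocorticoid response element palindrome (GNACA and TGTNC with any 3 bases between), the FOXO core GTAAACA, the metal response element core (TGCACNC or TGCGCNC), the circadian E-box CACGTG, the myogenic E-box CAGCTG and a direct repeat of the PPAR element (AGGNCA, any base, AGGNCA). Over the 32851 promoters searched, 0.387% held the glucocorticoid palindrome, 3.17% the FOXO core, 21.4% the metal core, 6.02% the circadian E-box, 13% the myogenic E-box and 0.338% the PPAR repeat. These shares and those below leave out entries of unequal length and the promoters of a chromosome that was not searched. Each window holds the 250 bases upstream of the RefSeq start (build GRCm38.p6), 5′ to 3′ on the gene's strand, with matches in capitals.
Trim63, chr4:134314870-134315119, plus strand: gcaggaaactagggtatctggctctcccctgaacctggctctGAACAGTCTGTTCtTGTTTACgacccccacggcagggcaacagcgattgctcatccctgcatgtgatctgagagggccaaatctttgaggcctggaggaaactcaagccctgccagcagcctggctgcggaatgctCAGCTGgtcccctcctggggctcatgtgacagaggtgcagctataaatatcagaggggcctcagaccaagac
Mt1, chr8:94178839-94179088, plus strand: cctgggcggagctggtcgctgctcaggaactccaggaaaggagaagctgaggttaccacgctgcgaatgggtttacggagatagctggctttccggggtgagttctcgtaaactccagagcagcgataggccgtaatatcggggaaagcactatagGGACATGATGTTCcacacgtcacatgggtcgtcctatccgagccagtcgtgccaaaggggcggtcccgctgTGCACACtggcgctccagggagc
In the Trim63 window the palindrome began 208 bases upstream of the start and the FOXO core, on the opposite strand, 194 bases upstream, with 1 base between them; the third run of capitals is the myogenic E-box. In the Mt1 window the palindrome began 94 bases and the metal core 23 bases upstream. These matches describe the letters only. The glucocorticoid palindrome was found in 0.565% of the promoters of genes that rose, 0.384% of those of genes that fell and 0.331% of those of all tested genes, and the FOXO core in 2.51%, 1.92% and 2.18%.

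Glucocorticoid-responsive genes had the highest median of the 37 lists, 1.41, with 11 of 17 tested members higher and 2 lower. The called genes Cdkn1a, Ddit4, Foxo1, Mt1 and Mt2 stand in this list and in the atrophy list, so the counts are not independent. Mt1, a metal-binding metallothionein, was at 15.10, 15.27 and 14.65 against 12.67, 12.04, 13.30, 13.09 and 12.64 (4.79-fold, adjusted p = 0.00181), and Mt2 rose 6.23-fold from levels near background. Pdk4, which shuts off glucose oxidation, rose by 2.14 and Errfi1 and Nfkbia, inhibitors of growth factor and NF-kappaB signalling, by 1.41 and 1.36. The members that fell were Sgk1, a kinase (-0.90), and Dusp1, a phosphatase (-1.12). Tsc22d3, which encodes GILZ and is a standard target of the receptor, differed by -0.17 and was not called (adjusted p = 0.402).

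Proteasome subunits rose by small amounts, 14 of 27 tested with 1 lower (Psmb5, -0.85), and a median of 0.45. Psmc2, an ATPase of the regulatory particle, was at 14.69, 14.54 and 13.98 against 13.66, 13.54, 13.56, 13.59 and 13.81, a 1.70-fold rise (0.77 ± 0.16 SE, adjusted p = 0.00346). Psmd11 and Psmd4, further subunits of that particle, rose 1.85-fold and 1.82-fold, and the core particle subunits Psmb3 and Psmb4 by 0.58 and 0.50 on the log2 scale. With vehicle 0 of the 27 were called, where the share of all rows was 5.3%, with a median of 0.0993. The difference of the genotype effects was called for 0 members. The number that rose with 4b was 7 without transgenic replicate 1, 8 without replicate 2 and 17 without replicate 3.

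In fuel metabolism most called genes of fatty acid oxidation were higher and most called glycolytic genes lower. Of 27 tested genes of the PGC-1 and fatty acid oxidation list, 14 rose and 1 fell (median 0.52). Acadl, the long-chain acyl-CoA dehydrogenase, was at 11.37, 11.15 and 10.85 against 9.58, 9.64, 9.17, 9.73 and 9.61, a 2.99-fold rise (1.58 ± 0.22 SE, adjusted p = 0.000495). Slc25a20, which carries acylcarnitines into mitochondria, rose 1.99-fold, Echs1 of the beta-oxidation spiral 2.06-fold, Acadvl 1.81-fold and Etfdh, which passes the electrons to ubiquinone, 1.90-fold. Their transgenic arrays lay above every wild-type array. The member that fell was the coactivator Ppargc1b (-1.58), and its relative Ppargc1a differed by 0.01 and was not called.

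Glycolysis and glycogen genes showed 8 falls and 1 rise among 19 tested, with a median of -0.42. Pgm1, which links glycogen to glycolysis, was at 10.40 and 11.06 on transgenic replicates 1 and 2, with replicate 3 higher but still under the lowest wild-type array (12.89), a 3.59-fold fall (-1.84 ± 0.29 SE, adjusted p = 0.000794). Phka1, a subunit of phosphorylase kinase, fell 4.08-fold, Ldha 2.19-fold and Pgam2, the muscle phosphoglycerate mutase, 2.05-fold. The glucose transporter Slc2a1 rose 1.87-fold. On replicate 3 the summed glycolysis level was -0.10, near the wild-type range of -0.04 to 0.05, against -0.96 and -0.55 on the other transgenic arrays. The number of falls was 4 without transgenic replicate 1, 4 without replicate 2 and 10 without replicate 3.

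Few genes of oxidative phosphorylation were called, 2 of 46 higher and 2 lower (8.7%, under the 28.3% of all rows). The risers Atp5c1, of the ATP synthase, and Ndufv1, of complex I, differed by 0.48 and 0.40, and the fallers Ndufc1 and Cycs (cytochrome c) by -0.73 and -1.12. Without transgenic replicate 3, 9 members were lower. In the tricarboxylic acid cycle Idh2 rose by 1.03 and Idh3a fell by 0.79, out of 14 tested (14.3% called, also under the share of all rows).

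**Figure D2:**
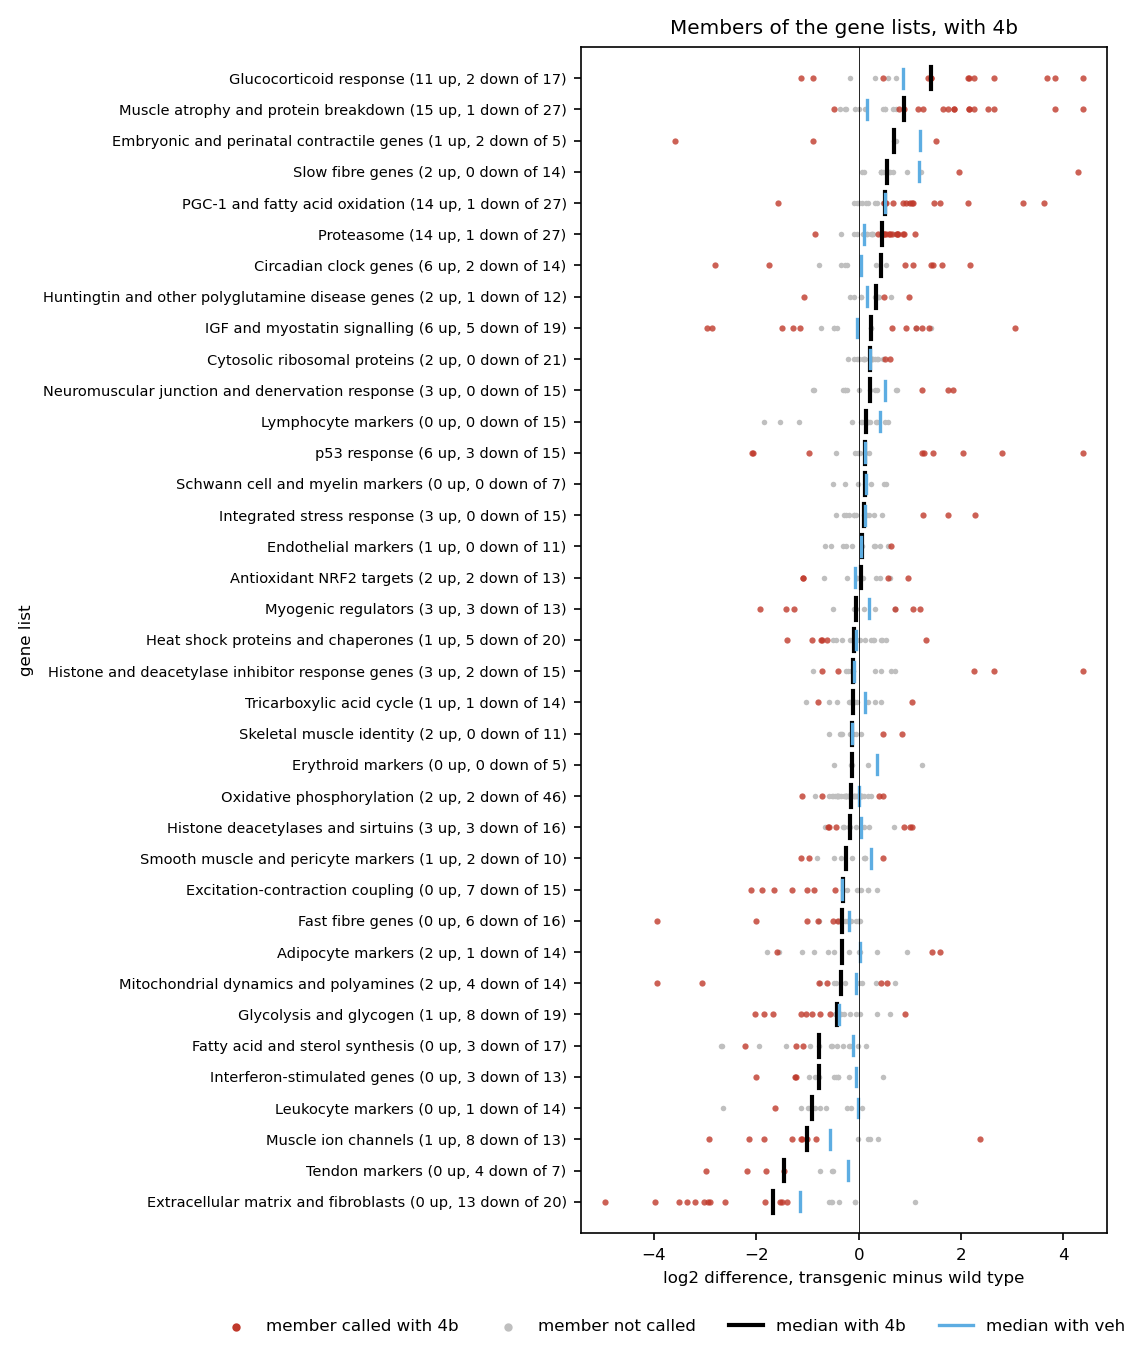
Log2 difference, transgenic minus wild type with 4b (horizontal axis), of each tested member of 37 gene lists; red points are called members, black bars the list medians with 4b and blue bars the medians with vehicle, and the labels give the called members in each direction. The glucocorticoid list has the highest median (1.41) and the extracellular matrix list the lowest (-1.69).

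All called genes of the fast fibre list were lower in transgenic muscle. Of 16 fast fibre genes 6 (37.5%) fell, against 12.8% of all rows, and 0 rose (median -0.33). The number of falls was 3 without transgenic replicate 1 and 4 without replicate 2. After Casq1, Gpd1, a glycerol phosphate enzyme abundant in fast fibres, was at 8.32, 8.14 and 9.45 against 10.28 to 11.09, a 4.05-fold fall (-2.02 ± 0.31 SE, adjusted p = 0.000706). Myh4, the fast myosin IIb heavy chain, was at 13.33, 13.23 and 13.41 against 14.15, 13.69, 14.02, 14.21 and 14.50, a 1.73-fold fall (-0.79 ± 0.22 SE, adjusted p = 0.0145). Tpm1 fell 2.02-fold and Myoz1, which binds calcineurin at the Z-disc, 1.42-fold. Of 14 slow fibre genes all had positive differences (median 0.56), but Sln and Ankrd2, a stretch-responsive ankyrin protein (3.87-fold), were the 2 that passed. That share of 14.3% lies near the 15.5% of all rows called higher. The slow myosin Myh7 differed by 0.43 (adjusted p = 0.743).

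All called genes of the excitation-contraction coupling list were also lower. Of 15 excitation-contraction coupling genes, 7 were called lower and 0 higher, and 4 were lower without transgenic replicate 1. Camk2a, a calcium-dependent kinase, was at 8.59, 8.63 and 9.62 against 10.73 to 11.23, a 4.33-fold fall (-2.11 ± 0.27 SE, adjusted p = 0.000318). Jph2, which tethers the sarcoplasmic reticulum to the T-tubule, was at 5.55, 6.05 and 6.33 against 7.64 to 8.25, a 3.73-fold fall (a second probe differed by -0.56 and was not called), and Stac3, a partner of the calcium channel, fell 1.84-fold. The release channel Ryr1 differed by 0.01 and was not called. The call of Asph is uncertain, since 5 of its 6 other probes had the opposite sign (0.16 to 0.94, none called) and 1 differed by -1.06.

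Of 13 ion channel genes 8 fell and 1 rose. Kcnab1, a regulatory subunit of potassium channels, was at 6.53, 6.80 and 6.07 against 8.07, 9.77, 9.13, 9.70 and 10.30, a 7.61-fold fall (-2.93 ± 0.40 SE, adjusted p = 0.000466). Kcnj12, an inward rectifier, fell 4.45-fold, Atp1b2, a sodium pump subunit, 3.60-fold, and Clcn1, the chloride channel whose loss causes myotonia, 2.46-fold by its brightest probe. A second Clcn1 probe differed by -0.10 (adjusted p = 0.747), and with the mean of both probes the call was lost (-0.70, adjusted p = 0.0520). Clcn1, which stands in both of these lists, overlapped between groups, its transgenic replicate 3 being at 7.32 against a lowest wild-type value of 7.20. Kcne1l, a small potassium channel subunit, was below background on all 5 wild-type arrays and was at least 3.58-fold higher. The number of falls in this list was 3 without transgenic replicate 1, 4 without replicate 2 and 8 without replicate 3.

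The Casq1 promoter is shown as the example of a fibre gene that fell. The myogenic E-box, the sequence bound by MyoD and its relatives, began 195 bases upstream of the start in this window.
Casq1, chr1:172219896-172220145, minus strand: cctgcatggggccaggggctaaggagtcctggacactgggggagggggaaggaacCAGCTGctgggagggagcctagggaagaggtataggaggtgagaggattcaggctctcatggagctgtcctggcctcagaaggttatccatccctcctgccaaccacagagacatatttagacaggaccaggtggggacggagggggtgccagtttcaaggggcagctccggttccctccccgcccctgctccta
The same element was present in 13.7% of the promoters of genes that fell, 11.7% of those of genes that rose and 12.6% of those of all tested genes.

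Of 15 genes known from the synapse or from denervated muscle, 3 (20%) were called, a smaller share than the 28.3% of all rows, and all 3 rose: Chrna1, the acetylcholine receptor alpha subunit (10.67, 11.18 and 10.81 against 8.61 to 9.58; 3.36-fold), Musk, the receptor kinase that clusters it (3.58-fold; a second probe differed by 0.51 and was not called), and Gadd45a (2.35-fold). Myog, the denervation-induced regulator, differed by 0.32 and was not called. Mef2c, a transcription factor of muscle differentiation, was at 11.20, 11.60 and 12.07 against 13.71, 13.77, 13.18, 13.43 and 13.67, a 3.81-fold fall (-1.93 ± 0.21 SE, adjusted p = 0.000156). Myf6, the regulator most abundant in adult fibres, fell 2.39-fold, Myod1 by 1.41, and Rb1, Tead4 and Eya1 rose 1.63-fold, 2.30-fold and 2.08-fold, all 3 losing their call without transgenic replicate 2, where 0 of 13 myogenic genes were higher and 1 lower. Of the embryonic genes, perinatal myosin Myh8 rose 2.86-fold, atrial light chain Myl4 fell by 0.89 and cardiac actin Actc1 fell by 3.59, with overlap between transgenic replicate 3 (10.30) and wild-type replicate 5 (9.56).

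Growth factor signalling was divided between its parts. Of 19 IGF and myostatin pathway genes, 6 rose and 5 fell, while 3 rose and 5 fell without transgenic replicate 1 and 3 rose and 3 fell without replicate 2. Among secreted members, Igfbp3, an IGF-binding protein, was at 10.81, 9.85 and 9.51 against 6.25 to 7.54 and rose 8.32-fold (3.06 ± 0.36 SE, adjusted p = 0.000304), while Igfbp5, a binding protein abundant in muscle, was at 10.90, 9.72 and 10.70 against 12.85 to 13.55 and fell 7.28-fold (-2.86 ± 0.42 SE, adjusted p = 0.000553). Fstl1, a secreted glycoprotein, fell 7.84-fold and Igf1 2.82-fold. The receptor Igf1r rose by 1.12, the kinases Akt2 and Mtor by 1.37 and 0.92, and the activin receptors Acvr1b and Acvr2b by 1.23 and 0.65. Smad3, which carries myostatin signals to the nucleus, fell 2.43-fold.

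p53-responsive genes were divided, with 6 of 15 higher and 3 lower (60% called, against 28.3% of all rows). Sesn1, which restrains mTORC1, was at 13.08, 12.88 and 13.09 against 10.08, 10.30, 10.75, 10.10 and 9.88, a 6.92-fold rise (2.79 ± 0.42 SE, adjusted p = 0.000607). Trp53inp1 rose 4.10-fold, the death receptor Fas 2.72-fold and the apoptosis gene Bbc3 2.41-fold by its brightest probe, while its other probes differed by 0.24 and 0.26 and were not called. Phlda3 fell by 2.09 and Ccng1 by 0.96, and Mdm2, the feedback regulator of p53, differed by 0.02 and was not called. Of 15 integrated stress response genes 3 (20%) were called, all higher, against 15.5% of all rows called higher and 28.3% called in either direction. These were Eif4ebp1, Ppp1r15a, which restores translation (4.80-fold), and Slc7a5, an amino acid transporter (2.39-fold), whose call was lost under 11 of 26 alternatives. Atf4, Ddit3, Asns and Chac1 were not called.

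Clock genes were called in 8 of 14 cases (57.1%, against 28.3% of all rows), 6 higher and 2 lower. With vehicle 0 were called, where the share of all rows was 5.3%, and the difference of the genotype effects was called for 0 members. The number higher with 4b was 4 without transgenic replicate 1 and 4 without replicate 2. Dbp, an output factor of the clock, was at 9.37, 10.04 and 11.92 against 13.58, 13.60, 13.22, 12.47 and 13.40, a 7.02-fold fall (-2.81 ± 0.66 SE, adjusted p = 0.00655). Bhlhe40, a repressor, fell 3.39-fold. Per1, a repressor also induced by glucocorticoids, was at 11.06, 11.29 and 11.39 against 9.30, 9.94, 10.28, 10.05 and 9.58 (2.66-fold, adjusted p = 0.00746), Cry2 rose 2.74-fold and Clock, the activator, 2.10-fold. Arntl, the partner of Clock, rose by 2.18 and Ciart by 1.62. The sources used here do not give the times of killing, and their part in these differences was not tested.

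The circadian E-box, which the pair of Clock and Arntl binds, is marked in the windows of Per1 and Ciart, chosen after their values were seen as clock genes whose windows hold it.
Per1 (first of its start sites in the table), chr11:69098699-69098948, plus strand: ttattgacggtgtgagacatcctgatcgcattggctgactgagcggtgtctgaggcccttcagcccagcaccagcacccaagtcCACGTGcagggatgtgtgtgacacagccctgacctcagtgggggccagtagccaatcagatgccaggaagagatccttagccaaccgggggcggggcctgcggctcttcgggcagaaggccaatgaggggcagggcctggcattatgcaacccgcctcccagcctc
Ciart, chr3:95882229-95882478, minus strand: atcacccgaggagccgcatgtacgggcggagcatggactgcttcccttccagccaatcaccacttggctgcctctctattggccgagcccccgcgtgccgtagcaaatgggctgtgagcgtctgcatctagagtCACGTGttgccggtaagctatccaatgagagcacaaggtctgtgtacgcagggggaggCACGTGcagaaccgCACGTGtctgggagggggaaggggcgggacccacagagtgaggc
The Per1 element began 166 bases upstream of the start, and those of Ciart 116, 58 and 44 bases upstream. The window of the other Per1 start site, not shown, did not hold this element. The circadian E-box was found in 9.67% of the promoters of genes that rose, 8.22% of those of genes that fell and 8.13% of those of all tested genes.

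The deacetylases known as targets of 4b were slightly lower in transgenic muscle. Hdac1 was at 7.75, 7.72 and 7.77 against 8.69, 8.05, 8.36, 8.44 and 8.04, a 1.49-fold fall (-0.57 ± 0.20 SE, adjusted p = 0.0480), and Hdac3 fell 1.37-fold (-0.45 ± 0.15 SE, adjusted p = 0.0393) with overlap between groups. These calls were lost under 13 and 11 of 26 alternatives. Hdac2 fell 1.52-fold, the muscle deacetylase Hdac5 was at 11.90, 11.26 and 11.52 against 10.21 to 10.82 (higher, adjusted p = 0.00109), and the sirtuin Sirt1 was at 9.62, 9.66 and 9.38 against 8.27 to 8.77 (2.05-fold higher, adjusted p = 0.000706). Of 16 deacetylases and sirtuins 3 were higher and 3 lower (37.5% called, against 28.3% of all rows), without transgenic replicate 1 it was 4 higher and 0 lower, and with median scaling 3 were higher and 0 lower. Of 15 genes known to respond to deacetylase inhibitors 33.3% were called, near the 28.3% of all rows. Cdkn1a, Mt1 and Mt2 rose, and Hr, a corepressor, and the histone gene H2bc4 fell by 0.71 and 0.40. In a list of 12 tested genes, made up of polyglutamine disease genes and Prnp, 25% were called, under the 28.3% of all rows. The 2 that rose were Prnp and Tbp (1.98-fold), and Atxn1 fell 2.09-fold.

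Of 20 chaperone genes 5 fell and 1 rose, a called share of 30% that lies near the 28.3% of all rows, with Hspb2 at 8.07, 8.53 and 9.33 against 9.73 to 10.62 (2.66-fold lower, adjusted p = 0.00198), Cryab 1.67-fold lower and Hspb7 2.47-fold higher. The falls numbered 1 without transgenic replicate 1, 1 without replicate 2 and 1 with median scaling. Of 21 cytosolic ribosomal protein genes 2 (9.52%) were called, Rpl19 and Rps9, both higher, against 15.5% of all rows called higher, and 0 were without transgenic replicate 1 and 8 with median scaling. Of 13 antioxidant genes 30.8% were called, near the 28.3% of all rows. Gclm and Gstm1 rose and Me1 and Gsta4 fell. The call of Gstm1 is uncertain because its other probe differed by -0.16, and that of Gclm was lost under 10 of 26 alternatives. Polyamine and mitochondrial shape genes included Smox, spermine oxidase, at 8.25, 8.86 and 9.17 against 10.85, 11.03, 10.88, 13.26 and 13.05 (8.33-fold lower, adjusted p = 0.00379), whose higher wild-type values were those of the arrays high in Eif2s3y (the transgenic array high in it was at 8.86), and the fusion proteins Mfn1 and Mfn2 (1.47-fold and 1.35-fold higher).

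All called genes of the connective tissue list were lower. Of 20 tested extracellular matrix and fibroblast genes, 13 fell and 0 rose, with a median of -1.69 (the same with the members below background set at their bound), and their summed level was -2.00 to -1.82 on the transgenic and -0.35 to 0.89 on the wild-type arrays. Col6a1 was at 9.06, 8.29 and 9.43 against 11.77, 11.97, 11.19, 12.38 and 11.84, a 7.48-fold fall (-2.90 ± 0.42 SE, adjusted p = 0.000540), Col5a1 fell 9.13-fold and Col15a1 7.68-fold. The summed level on transgenic replicate 3, -1.84, lay between those of the other transgenic arrays. The basement membrane collagens Col4a1 and Col4a2 differed by -0.08 and -0.07, the fibroblast receptor Pdgfra by -0.59 and Dcn, the most abundant small proteoglycan, by -0.39, none of them called.

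Tendon genes shared the direction, with 4 of 7 lower and 0 higher. Chad fell 7.93-fold, Fmod 4.55-fold (a second probe differed by -0.89 and was not called) and Comp 2.75-fold, and Kera, a corneal and tendon proteoglycan, was at least 2.37-fold lower, while the tendon transcription factors Scx and Mkx differed by -0.50 and -0.51 and were not called. The number of tendon falls was 3 without transgenic replicate 1, 1 without replicate 2 and 5 without replicate 3. The part of tendon or fascia in the dissected samples was not tested.

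Markers of other cells passed in few cases, and the called shares of the adipocyte (21.4%), leukocyte (7.14%) and endothelial (9.09%) lists were under the 28.3% of all rows. Of 14 leukocyte markers the macrophage gene Adgre1 fell 3.12-fold and 13 were not called, although 13 of the 14 differences were negative (median -0.92). The summed leukocyte level was -1.41 to -0.58 on the transgenic arrays and -0.32 to 0.26 on the wild-type arrays, without overlap. Of 15 lymphocyte markers 0 were called. Of 14 adipocyte markers Plin4 and Pnpla2 (2.72-fold and 3.01-fold higher), which muscle fibres also express, and Car3 (3.04-fold lower) were called, and Adipoq, at 10.99, 7.91 and 9.39 against 12.92, 9.63, 12.49, 10.62 and 10.47, differed by -1.79 and was not (adjusted p = 0.212). Endothelial markers gave 1 call of 11 (Pecam1, 1.56-fold higher). Smooth muscle and pericyte markers gave 3 of 10 (30%, near the 28.3% of all rows), and Schwann cell and erythroid markers 0 of 7 and 0 of 5.

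Lipid synthesis genes followed the adipocyte level in wild-type muscle. Of 17 tested, 3 (17.6%) were called, all lower, against 12.8% of all rows called lower and 28.3% called in either direction. The 3 were Srebf1, the regulator of fatty acid synthesis (at least 3.34-fold lower, wild-type replicate 1 the highest at 8.78), Fdps of the sterol pathway (2.32-fold) and Me1, which supplies NADPH (2.12-fold). The summed level of the 17 genes was 1.31 and 0.80 on wild-type replicates 1 and 3, -0.81 to -0.65 on the other wild-type arrays and -1.15 to -0.83 on the transgenic arrays. Without wild-type replicates 1 and 3, 3 members were called lower. Of 13 interferon-stimulated genes 3 (23.1%) were called, all lower and led by Oasl2 (4.00-fold, adjusted p = 0.00124), a share between the same 12.8% and 28.3%. The number was 1 without transgenic replicate 1, without replicate 2 or with median scaling.

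**Figure D3:**
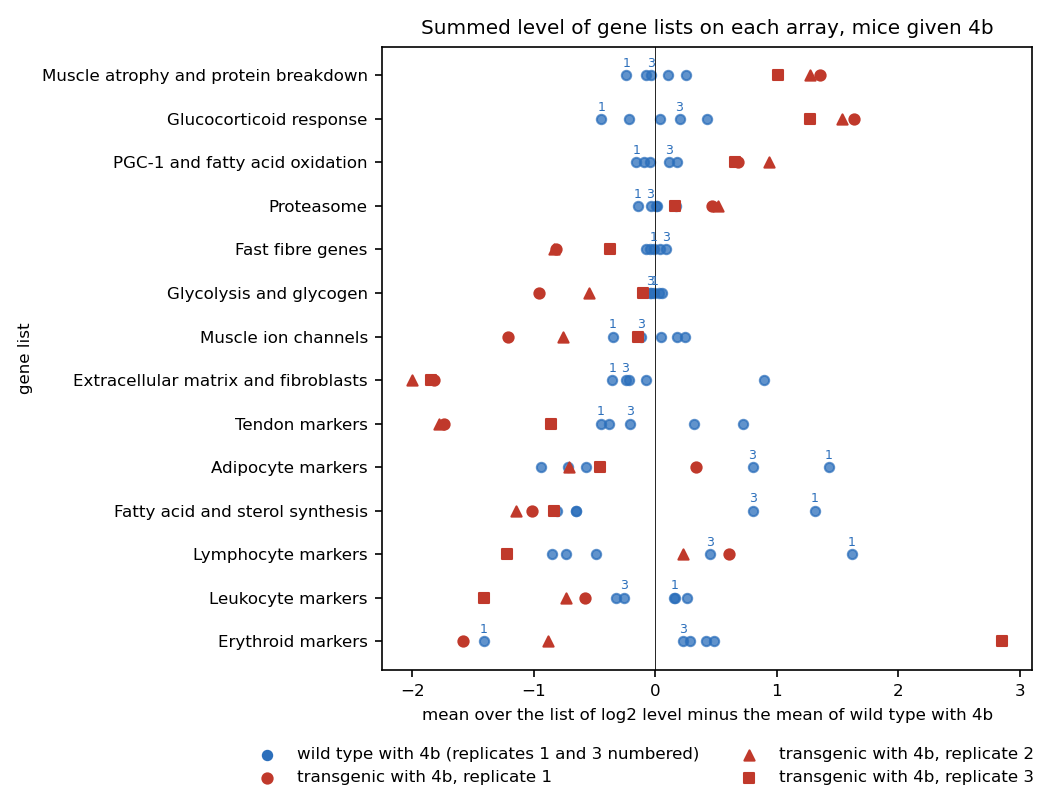
Summed level of 14 gene lists on each of the 8 arrays of mice given 4b, as the mean over members of the log2 level minus the wild-type mean (horizontal axis); blue points are wild-type arrays, with replicates 1 and 3 numbered, and red symbols the 3 transgenic arrays. The atrophy, glucocorticoid, fatty acid oxidation, fast fibre, matrix, tendon and leukocyte lists are among those that separate the genotypes. The glycolysis and ion channel levels of transgenic replicate 3 (-0.10 and -0.14) lie next to the wild-type arrays, and the adipocyte, lymphocyte and erythroid lists do not separate the genotypes.

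The transgenic animals given 4b differed from their wild-type group by unequal amounts. Over the 2911 called genes, the median distance from the wild-type mean, taken in the direction of the call, was 1.08 and 1.01 log2 units on replicates 1 and 2 and 0.66 on replicate 3. Since these arrays made the calls, these values are a description. On the vehicle arrays, which entered the normalization and the pooled spread but not that contrast, the same genes were 0.77, 0.24, 0.46 and 0.27 from the vehicle wild-type mean on transgenic replicates 1 to 4. The most distant transgenic array with vehicle thus lay above the least distant one with 4b.

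**Figure D4:**
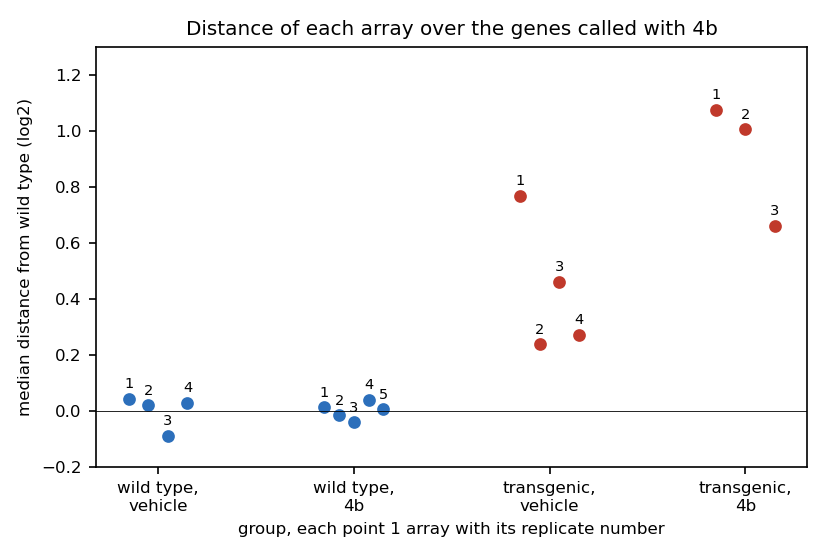
Median distance (log2, vertical axis) of each of the 16 arrays from the wild-type mean of its own treatment over the 2911 genes called with 4b, signed by the direction of the call; each point is 1 array with its replicate number, blue for wild type and red for transgenic. Transgenic arrays ranged from 0.66 to 1.08 with 4b and from 0.24 to 0.77 with vehicle, and wild-type arrays lie near 0 by construction.

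The genotype difference with 4b was set beside that with vehicle, which shares no arrays with it but shares the normalization and the pooled spread. With vehicle 546 rows (5.3%) were called, 246 higher (2.39%) and 300 lower (2.91%). That number was 222 without the 2 animals numbered in 3 digits and 1049 with the detected share added to the model, and the overlaps that follow are for the 546. Of these, 425 were also called with 4b, all in the same direction, which is 77.8% of the vehicle calls and 14.6% of the 4b calls. Of the 2911 rows called with 4b, 2728 (93.7%) had the same sign with vehicle. Their median absolute difference was 0.91 with 4b, by which they were chosen, and 0.43 with vehicle, whereas over the vehicle calls it was 0.97 with 4b and 0.99 with vehicle.

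The test of the difference between these genotype effects called 0 of 10295 rows (0%). By limma 1039 rows had an unadjusted p under 0.05, and the smallest adjusted p was 0.0711. The numbers of calls under each treatment therefore do not show that the genotype effect differed between treatments for any gene in this fit. Without transgenic replicate 3 the test called 17 rows, and with array weights 89, a fit in which transgenic replicate 2 given 4b had a weight of 3.92 against 0.63 and 0.52 for the others.

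Among the genes called with both treatments, the 10 with the smallest larger adjusted p of both contrasts are given with their 2 differences. Gdap1 differed by -3.95 with 4b and -3.06 with vehicle, Styx, a catalytically inactive phosphatase, by -1.68 and -1.35, and Aimp2, a scaffold of the tRNA synthetase complex, by -2.38 and -2.00. Kcnab1 differed by -2.93 and -3.51, and Sln by 4.28 and 5.39. Nudt16, an RNA-decapping enzyme, rose by 1.93 and 1.47, and the splicing factor Hnrnpl by 1.18 and 1.34. Fgfbp1, an FGF carrier, and Emid1, a matrix protein, were not above background on the transgenic arrays with 4b and were at least 3.44-fold and 5.57-fold lower. Kcne1l differed by 2.37 and 3.59.

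Genes with the smallest p for a difference between the treatments, none of them called, fell into 2 kinds. For Nfkbib, an inhibitor of NF-kappaB, the genotype difference was 1.65 with 4b and 0.26 with vehicle (difference 1.38 ± 0.21 SE, adjusted p = 0.0711), from 8.05, 8.04 and 7.65 against 6.05 to 6.49 with 4b and 6.64 to 7.01 against 6.42 to 6.70 with vehicle. Ulk1 (1.25 and -0.07), Cstf1 (0.98 and 0.04), Mef2c (-1.93 and -0.61) and Lurap1l (-1.64 and 0.13) likewise had the larger genotype difference with 4b. Gfer, of the mitochondrial import pathway (0.03 and -0.79), Cul7 (-0.37 and 0.78) and the phosphatase Ptprd (-0.33 and 1.02) were called with vehicle and not with 4b. Apart from Nfkbib, the adjusted p of these genes was 0.422.

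Cdkn1a gave an example of spread in the vehicle group, where transgenic arrays ran from 9.99 to 13.22 and wild-type arrays from 8.32 to 10.79, with a difference of 1.73 that was not called (adjusted p = 0.125). The difference between its genotype effects was 2.65 ± 0.91 (SE), with an unadjusted p of 0.0108 and an adjusted p of 0.454. Prnp was the opposite case, with a genotype difference of 0.50 under 4b and 1.16 under vehicle (difference -0.67 ± 0.24 SE, adjusted p = 0.456). For the atrophy list 15 members rose with 4b and 5 with vehicle, and for slow fibre genes 2 rose with 4b and 6 with vehicle. The difference of the genotype effects was called for 0 members of either list.

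**Figure D5:**
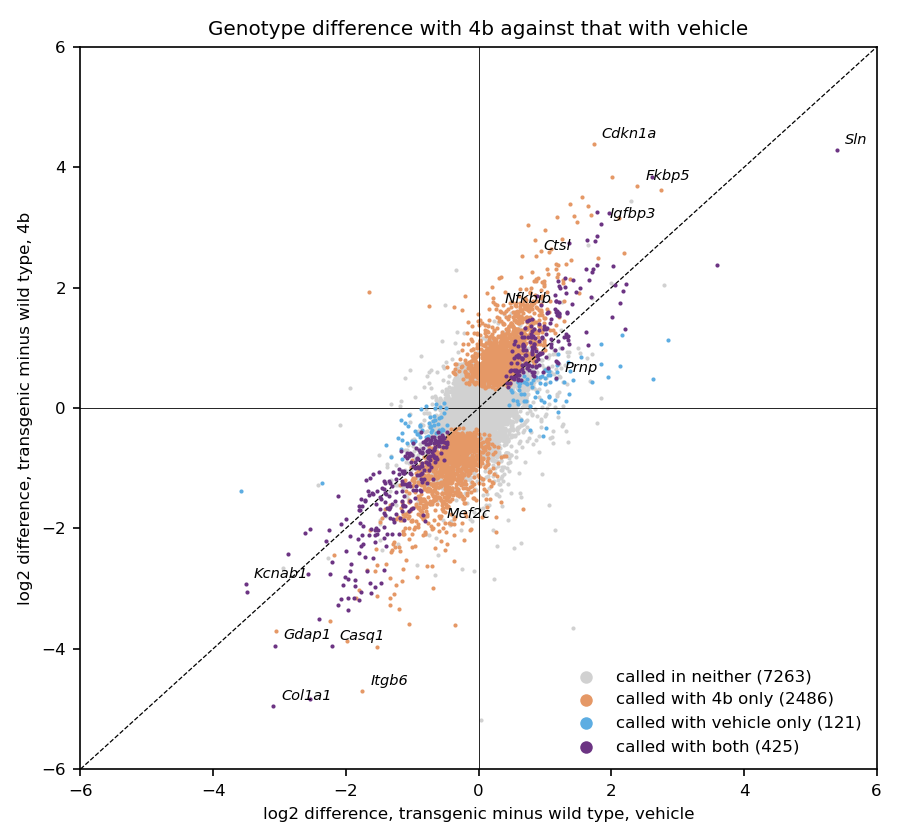
Log2 difference, transgenic minus wild type, with vehicle (horizontal axis) and with 4b (vertical axis) for the 10295 rows; colours mark the treatment under which a row was called, the dashed line marks equal differences, and named genes are those in the text. The rows called with both treatments lie at the upper right and the lower left, since all 425 had the same direction.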

How the data were processed

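Illumina bead arrays were hybridised with total RNA of the gastrocnemius, 1 array for each of 16 mice, per the labels. The authors deposited a linear intensity per probe and array, not normalised per the file headers, with a detection p-value for each, and separately log2 values. The deposited log2 values matched log2 and quantile normalization without background correction.

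Here intensities were background-corrected by normexp from the detection p-values (offset 16), quantile-normalised and log2-transformed with limma 3.58.1 in R 4.3.3. Probes detected (p under 0.05) on at least 3 arrays were kept, and the brightest probe stood for a gene. Of 25697 probes, 23978 had 1 symbol in the platform annotation, 0 several and 1719 none. A model of 4 group means over all 16 arrays (12 residual and 3.09 prior degrees of freedom) gave two-sided tests, Benjamini-Hochberg adjusted over all 10295 rows; calls needed an adjusted p under 0.05. The median SE was 0.224, and the number of arrays limits precision. Quantile normalization hides a shift of most genes one way, and the offset compresses dim probes. Where all arrays of a group were below background, the fold is a lower bound against the higher of the probe's value and the lowest detected signal. The labels give each animal its own number, so p-values measure the spread between animals; the numbering of replicates is by order of deposit.

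The members, the gene lists and the tests were chosen with earlier results of these data known. Genes were named by rule: the 15 largest rises and falls among calls with no overlap between the arrays of both groups; up to 5 called members with the smallest p in each list (otherwise 2); the 4 smallest p in each direction for the difference of genotype effects; the 10 best called in both contrasts; and Prnp, Htt, Hdac1, Hdac3, Xist, Eif2s3y, Sln and Cdkn1a. Further list members named were picked after their values were seen. On simulated data for this comparison, with independent normal values, 200 of 10295 rows were changed. Of genes changed by 0.5, 1 and 2 log2 units, 5.97%, 61.2% and 90.9% were called, and 7 of 112 calls were false. The data had 2911 calls, and the simulation held no differences shared by whole arrays. These rates therefore cannot be taken as those of the data. Promoters came from RefSeq (GRCm38.p6).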

Additional observations from a re-analysis of the deposited data

Results flagged for a closer look

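In 10 of 167 values tested, 1 of the 5 wild-type arrays given 4b lay far from the other 4, where chance alone flags about 1 in 20. Replicate 4 was high for Cdkn1a (10.35, the others 8.35 to 8.82), Tmem82 (6.02, the others 4.77 to 5.10), Col1a1 (12.48, the others 9.35 to 10.10) and Col5a1 (11.56, the others 10.06 to 10.27). Replicate 3 was high for Hnrnpl (9.55, the others 8.98 to 9.11) and low for Acadl (9.17, the others 9.58 to 9.73). Replicate 1 was low for Ankrd2 (9.94, the others 10.88 to 11.11), Cycs (7.77, the others 8.60 to 8.87) and Hba-a1 (12.79, the others 14.27 to 14.60). Replicate 5 was low for Actc1 (9.56, the others 11.53 to 12.17). The groups of 3 transgenic arrays are too small for this comparison.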

How the results depend on the processing

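The count of 2911 genes called with 4b was 4768 with array weights (2478 higher, 2290 lower) and ran from 1577 to 3040 when 1 replicate was left out (917 to 1594 higher, 660 to 1446 lower), and median scaling gave 846 lower. The difference between the genotype effects, 0 genes, gave 1 without a filter on detection, 89 with array weights and 0 to 17 with 1 replicate left out. The count with vehicle, 546, was 880 with array weights, 1049 with the detected share added to the model and 222 without the 2 animals numbered in 3 digits; the cause was not tested. An ordinary linear model on the 8 arrays called 2133 genes. The difference in detected share ran from -0.289 to 0.861 percentage points with 1 replicate left out. Of 154 named genes called, 99 kept the call under every one of 26 alternatives, 55 lost it in at least 1, and 0 of these 154 turned direction. Of the 12 named genes not called, 7 (Gfer, Htt, Xist, Eif2s3y, Pmp22, Slc4a1 and Hba-a1) changed sign in at least 1 alternative. Calls lost under 9 or more alternatives were those of Prnp, Hdac1, Hdac3, Eya1, Idh3a, Slc7a5, Gclm, Usp18, Ifit3, Pecam1 and Azin1. The slide or scan as a block was not run, since no position or scan was given in the files used here. No paired analysis was possible because the labels number animals, and no number is shared between groups. In the simulation, with 200 of 10295 rows changed, 5.97% of changes of 0.5 log2 units were called. The data had 2911 calls, some of them of under 0.5 log2 units, and the rate for the data was not tested.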
